A study of Saccharomyces cerevisiae with 15 samples.

Results

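The genes of the cytosolic ribosomal proteins were followed in a yeast strain grown on 5 initial concentrations of mannose. Members were all probe sets whose annotated symbols are RPL, RPS or RPP followed by a number, with or without an A or B for a paralog, which gave 164 of the 9335 probe sets of the array, or of 9275 without controls. Of these, 90 belonged to RPL genes of the large subunit, 68 to RPS genes of the small subunit and 6 to RPP genes of the stalk of the large subunit. One symbol stood on 105 of them, covering 80 genes, and the other 59 were shared by a pair of paralogs, so that 54 of the 134 genes could be read only together with their twin. All cultures were of one Saccharomyces cerevisiae strain with PMI40 knocked out, derived from CEN.PK113-7A. PMI40 encodes phosphomannose isomerase, which makes mannose 6-phosphate from fructose 6-phosphate, so cells without it depend on mannose from the medium for their glycoproteins and cell wall. Each aerated batch on mineral medium held 15 g/L glucose and 0.75, 1, 1.5, 3 or 5 g/L mannose, and total RNA was taken at 6 h and hybridised to Affymetrix YG_S98 arrays, 3 for each concentration and 15 in all. No parent strain was compared, so each result is a difference between mannose concentrations within the deletion strain.

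A ribosome is built from a large and a small subunit, each a set of ribosomal proteins folded onto ribosomal RNA, and in growing yeast the messengers of these proteins are among the most abundant in the cell. Many of the genes exist as 2 copies, A and B, left from a duplication of the genome, and the copies encode identical or nearly identical proteins. Their transcription is known to follow nutrient and growth signals together, through Rap1, Fhl1, Ifh1 and Sfp1 at their promoters and the TOR and protein kinase A pathways upstream.

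Signals were used as deposited, with a trimmed mean near 100 on each array, so a value is a level relative to the rest of the RNA on that array and RNA per cell cannot be read from it. The median member lay between the 96.3 and 98.0 percentile of its array, and its signal averaged over the arrays was 1395, with a range over members of 5.5 to 6749. The array records placed the 15 arrays in 4 inferred fluidics runs (A to D) and in an earlier and a later session. All 0.75 g/L arrays and replicate 1 at 3 g/L shared run A. Replicates 2 and 3 at 3 g/L shared run B with replicates 1 and 2 at 5 g/L, replicate 3 at 5 g/L shared run C with all 1.5 g/L arrays, and run D held 1 g/L only. No message of completion stood in 5 records, those of run A and of replicate 2 at 5 g/L. Nothing in the labels says that replicate arrays stem from separate cultures, so p-values measure the spread between arrays, which may be technical.

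From 0.75 to 1 g/L the signals of the ribosomal protein genes went up together. The median of the members on each array, as the log2 distance from each probe set's own mean over the 15 arrays, was -0.46, -0.43 and -0.47 at 0.75 g/L against 0.33, 0.35 and 0.44 at 1 g/L, with no overlap. Of the 162 members that passed the filter on low signals, 126 (77.8%) rose and 0 fell at an adjusted p under 0.05, where 22.1% of the 6956 tested probe sets rose and 15.3% fell. The median change was 0.80 on the log2 scale, 1.74-fold, against 0.11 over all tested probe sets. In 145 members all 3 arrays at 1 g/L lay above all 3 at 0.75 g/L, which held for 29.4% of all tested probe sets. With the session as a term in the fit, which rests on the 5 g/L arrays as the link between sessions, 36 members rose and the median was 0.71. In that fit 548 of all tested probe sets rose and 297 fell.

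No run held arrays of both 0.75 and 1 g/L, and within a run the 0.75 g/L arrays can be set only beside replicate 1 at 3 g/L. That array of run A had a member median of 0.34, the highest of the 3 g/L group (0.06 and -0.18 for the others), and it lay above the mean of the 0.75 g/L arrays in 157 of 162 members, with a median difference of 0.80, while 53.8% of all tested probe sets were higher. That is 1 array against 3 and was not tested. Among the 100 brightest probe sets of an array, members numbered 26 to 29 at 0.75 g/L and 45 to 52 at 1 g/L. The 99th percentile of the signals of the other genes was 1874 to 1905 at 0.75 g/L and 1826 to 1885 at 1 g/L, so the brightest other probe sets did not go up with the members. The 3'/5' signal ratio of SPT15, a measure of RNA integrity and labelling, was 4.19 to 5.26 at 0.75 g/L and 2.81 to 4.16 at 1 g/L. That of ACT1 overlapped, at 1.86 to 2.36 and 1.48 to 2.06. The part of either ratio in the result was not tested.

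**Figure D1:**
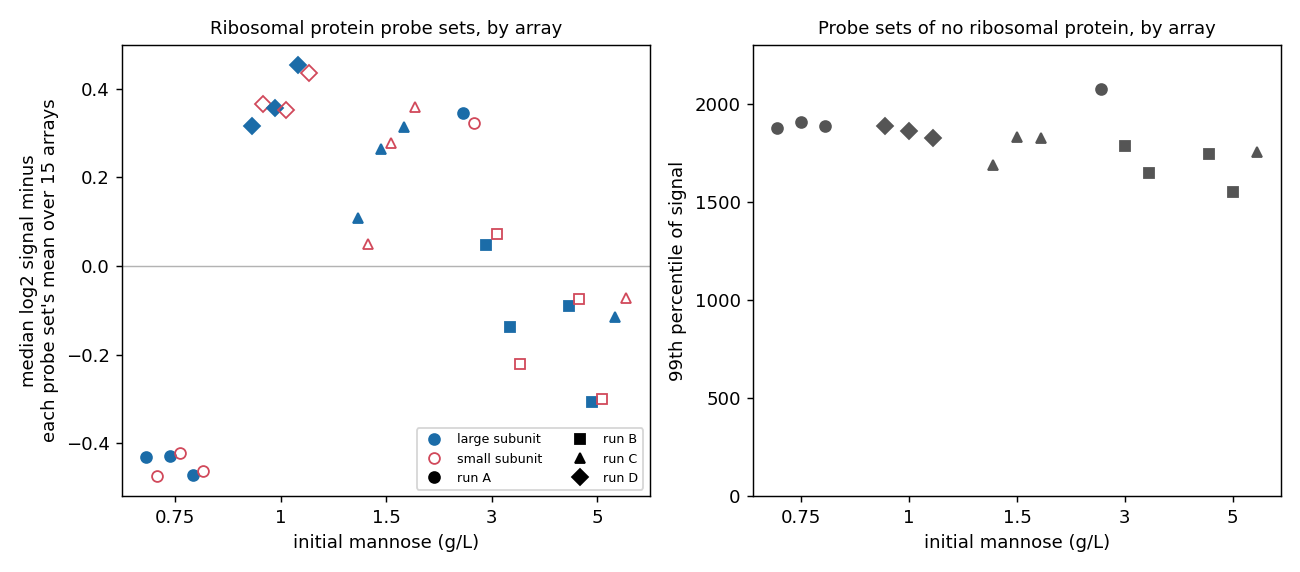
The left panel plots, for each of the 15 arrays, the median log2 signal of the large subunit probe sets (filled) and of the small subunit probe sets (open), each probe set taken relative to its own mean over the arrays, against initial mannose, with the marker giving the fluidics run. The right panel plots the 99th percentile of the signals of all probe sets that are not members. The 3 arrays at 0.75 g/L sit lowest, between -0.47 and -0.42, and those at 1 g/L between 0.32 and 0.45, while the 99th percentile of the other probe sets spans 1549 to 2074 over the 15 arrays.

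Above 1 g/L the signals declined again. The member median on each array was 0.10, 0.27 and 0.33 at 1.5 g/L, then 0.34, 0.06 and -0.18 at 3 g/L, with -0.09, -0.31 and -0.09 at 5 g/L. The arrays at 5 g/L therefore lay below those at 1 g/L and above those at 0.75 g/L without overlap, and the 3 g/L arrays spread over most of the range between. At 5 against 1 g/L, 83 members (51.2%) fell and 0 rose, where 10.4% of all tested probe sets fell and 13.5% rose, and the median change was -0.55 against -0.024 over all. All 3 arrays at 5 g/L lay below all 3 at 1 g/L in 121 members, which held for 19.7% of all tested probe sets. No run held arrays of both 1 and 5 g/L, so this fall cannot be told apart from run. Without replicate 3 at 1 g/L or without replicate 2 at 5 g/L the number that fell was 47, with the session in the fit it was 16, and after quantile normalization it was 42 with a median of -0.27. In these fits, in that order, 530, 646, 265 and 930 of all tested probe sets fell. The 99th percentile of the other genes was also lower at 5 g/L, at 1549 to 1756, and the 3'/5' ratio of SPT15 higher, at 4.44 to 6.90. The ratio of ACT1 was 1.49 to 2.14 at 5 g/L and overlapped with 1.48 to 2.06 at 1 g/L. The part of these in the result was not tested.

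**Figure D2:**
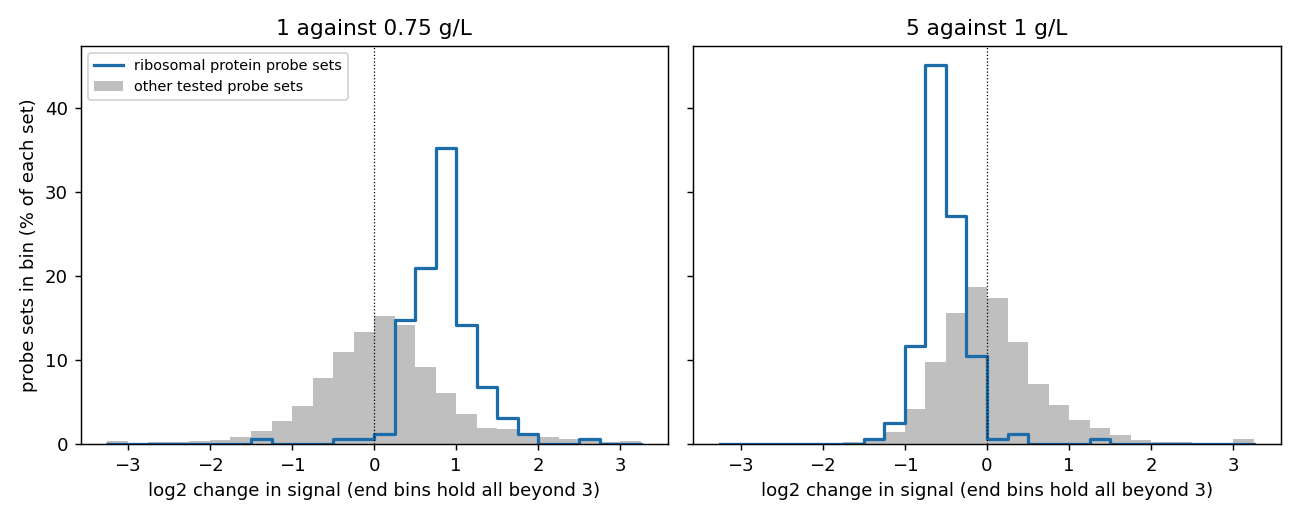
Histograms of the log2 change in signal for 1 against 0.75 g/L (left) and 5 against 1 g/L (right), with the share of the 162 ribosomal protein probe sets in each bin as a line and that of the other tested probe sets as grey bars. The members form a narrow peak around 0.80 on the left and around -0.55 on the right, while the other probe sets are centred near 0.

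The single steps above 1 g/L were called in no member. With limma, 0 of 162 members passed for 1.5 against 1 g/L (median -0.15), 0 for 3 against 1.5 g/L (median -0.15) and 0 for 5 against 3 g/L (median -0.23), where 0.403%, 4.1% and 0.992% of all tested probe sets did. At an unadjusted p under 0.05 the counts were 14, 23 and 20, where 769, 1351 and 650 of the 6956 tested probe sets passed. The medians were below 0 within runs as well. In run B the mean of the 5 g/L arrays lay below that of the 3 g/L arrays in 138 of 162 members (median -0.13), while 53.5% of all tested probe sets were higher. These arrays overlapped, with a member median of -0.09 for replicate 1 at 5 g/L and -0.18 for replicate 3 at 3 g/L. Without the arrays of incomplete record the median of 5 against 3 g/L was -0.020, against -0.026 over all. In run C the array at 5 g/L lay below the mean of the 1.5 g/L arrays in 142 (median -0.31), while 46.8% of all were higher. That is 1 array against 3, and neither run was tested. In 118 members (72.8%) the highest group mean was at 1 g/L, against 25.8% of all tested probe sets, and 28 more had it at 1.5 g/L. The lowest was at 0.75 g/L in 144 members (88.9%), against 37.9%. A rise to 1 g/L followed by a fall at each later step was seen in the group means of 92 members (56.8%), against 10.7% of all tested probe sets.

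In the F-test for any difference among the 5 concentrations 106 members (65.4%) passed, against 46.6% of all tested probe sets. In the slope on log2 mannose only RPL22B passed, where 23.7% of all tested probe sets did, and the median slope of the members was 0.0032 per doubling. That slope depends on the lowest concentration. Without 0.75 g/L 80 members passed, all lower, with a median of -0.23, where 876 of all tested probe sets passed lower and 992 higher. Without the 5 arrays of incomplete record 73 passed, all lower, with a median of -0.22, where 886 of all passed lower and 905 higher. Between the ends of the series, 5 against 0.75 g/L, 31 members (19.1%) rose and 0 fell, where 22.2% of all tested probe sets rose and 13.3% fell, and the median was 0.26 against 0.13 over all. The count of rises was thus near the background, while all 3 arrays at 5 g/L lay above all 3 at 0.75 g/L in 74 members, 45.7%, against 31.1% of all tested probe sets. Quantile normalization called 56 members, and median scaling 11 with a median of -0.013, which turns its direction. Of all tested probe sets 1277 and 999 rose in these fits. The comparisons share the arrays at 0.75, 1 and 5 g/L and are not independent of each other.

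At 1 against 0.75 g/L the median log2 change was 0.78 over 95 large subunit probe sets, stalk included, and 0.81 over 67 small subunit probe sets, and 75 and 51 of them rose. At 5 against 1 g/L both medians were -0.55, and 49 and 34 fell. The difference of the medians was not tested, since probe sets are not replicates. Large minus small at 1 against 0.75 g/L was -0.031, but -0.12 after quantile normalization and -0.16 among unmarked probe sets. The medians of the subunits on single arrays differed by at most 0.084, less than the distance between the arrays of 1 and 0.75 g/L.

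The stalk is the arm of the large subunit that recruits translation factors, with RPP0 at its base and the acidic proteins of RPP1 and RPP2 bound to it. RPP0 had signals of 2981, 3116 and 3266 at 0.75 g/L, 4388, 4874 and 5026 at 1 g/L, with 3254, 2402 and 3092 at 5 g/L. It rose 1.52-fold (log2 0.61 ± 0.19, adjusted p = 0.0246, where ± is the standard error of the fit with 3 arrays for each concentration) and then fell 1.64-fold (log2 -0.72 ± 0.19, adjusted p = 0.0159). Its arrays at 1 g/L lay above all those at 0.75 and 5 g/L. Of the 6 stalk probe sets 5 rose at 1 against 0.75 g/L and the same 5 fell at 5 against 1 g/L, those of RPP0, RPP1A, RPP2B and both of RPP1B. RPP2A passed neither, with log2 changes of 0.41 (adjusted p = 0.198) and -0.39 (adjusted p = 0.271).

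Among large subunit genes the biggest rise was that of RPL7B. Its brighter probe set (_i_at) read 122, 149.8 and 120.5 at 0.75 g/L, 623, 852 and 769 at 1 g/L, then 703, 899 and 733 at 1.5 g/L, 448, 576 and 635 at 3 g/L, with 292, 568 and 403 at 5 g/L. It rose 5.71-fold at 1 against 0.75 g/L (log2 2.51 ± 0.23, adjusted p = 1.45e-06), and at 5 g/L it was still 3.12-fold above 0.75 g/L (log2 1.64 ± 0.23, adjusted p = 7.01e-05). The 0.75 g/L arrays lay far below the other 12. A second RPL7B probe set (_f_at) rose less, 2.26-fold, from 24.3, 25.7 and 23.7 to 49.6, 58.6 and 58.9, and the probe set shared by RPL7A and RPL7B did not pass (log2 0.28 ± 0.22, adjusted p = 0.344). The size of the RPL7B rise therefore depended on the probe set. RPL13A rose 2.9-fold (log2 1.54 ± 0.19, adjusted p = 2.38e-05), from 522, 639.6 and 559 to 1739.6, 1388 and 1889, and fell 1.95-fold to 915, 630.5 and 1069 at 5 g/L (log2 -0.96 ± 0.19, adjusted p = 0.00236). RPL33B read 262, 237 and 258 at 0.75 g/L against 677, 705 and 636 at 1 g/L, a 2.67-fold rise (log2 1.42 ± 0.13, adjusted p = 1.82e-06). RPL37B fell 1.91-fold at 5 against 1 g/L (log2 -0.93 ± 0.23, adjusted p = 0.00981), with replicate 2 at 5 g/L the lowest of its 15 arrays at 764, and RPL37A fell 1.6-fold (log2 -0.68 ± 0.15, adjusted p = 0.00406). With the session in the fit the fall of RPL37B did not pass (nor without the arrays of incomplete record or on the 6 arrays compared alone), nor did the rise and fall of RPL13A.

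Small subunit genes supplied most of the other large rises. RPS26 lies near the exit of the channel that the messenger passes through, and its B copy read 166, 138 and 163 at 0.75 g/L, 611, 562 and 591 at 1 g/L, then 444, 399 and 578 at 1.5 g/L, 521, 451 and 374 at 3 g/L, with 426, 309 and 433 at 5 g/L. RPS26B rose 3.8-fold at 1 against 0.75 g/L (log2 1.92 ± 0.19, adjusted p = 2.52e-06) and fell 1.53-fold at 5 against 1 g/L (log2 -0.61 ± 0.19, adjusted p = 0.0291). All 12 arrays above 0.75 g/L lay above those at 0.75 g/L. RPS14B, whose splicing is known to be repressed by the Rps14 protein it encodes, read 171, 143 and 173 at 0.75 g/L, 555, 554 and 577 at 1 g/L, then 456, 549 and 476 at 1.5 g/L, 535, 519 and 347 at 3 g/L, with 372, 352 and 427 at 5 g/L. It rose 3.47-fold (log2 1.8 ± 0.17, adjusted p = 2.56e-06) and fell 1.47-fold (log2 -0.55 ± 0.17, adjusted p = 0.0331), again with the 0.75 g/L arrays apart from the others. Both probe sets of RPS7B rose, 3.05-fold for the one with the larger change (log2 1.61 ± 0.16, adjusted p = 2.68e-06) and 2.65-fold for the other (log2 1.41 ± 0.14, adjusted p = 2.69e-06). RPS9A rose 2.85-fold (log2 1.51 ± 0.14, adjusted p = 2.2e-06), and RPS1A rose 2.74-fold, from 1099, 1148 and 1023 to 2692, 2898 and 3400.2 (log2 1.45 ± 0.14, adjusted p = 2.69e-06). RPL7B, RPS26B, RPS14B, RPS9A and RPS7B, with RPL22B, also had the 6 largest rises of 5 against 0.75 g/L among probe sets with 1 symbol that passed, so their signals at 5 g/L were still above those at 0.75 g/L.

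The largest fall of any member from 1 to 5 g/L was on a probe set shared by RPL12A and RPL12B, which encode a protein at the base of the stalk. It read 1005, 1229.6 and 783 at 0.75 g/L, 2479, 2822 and 3892 at 1 g/L, then 2481, 2912 and 2839.9 at 1.5 g/L, 1907, 1935 and 1404 at 3 g/L, with 1178, 1055 and 1016 at 5 g/L. The change was log2 -1.48 ± 0.21, adjusted p = 0.00017, after a rise at the first step of log2 1.6 ± 0.21, adjusted p = 3.36e-05, and its arrays at 1 g/L lay above all those at 0.75 and 5 g/L. RPS22A, one of the brightest members, read 3564, 3012 and 3372 at 0.75 g/L, 8906, 8986 and 8485 at 1 g/L, then 6635, 7676 and 8156 at 1.5 g/L, 6159, 6143 and 4459 at 3 g/L, with 4336, 4525 and 4103 at 5 g/L. It rose 2.66-fold (log2 1.41 ± 0.15, adjusted p = 7.15e-06) and fell 2.04-fold (log2 -1.03 ± 0.15, adjusted p = 0.000306), and the arrays at 1 g/L lay above all those at 3 and 5 g/L. RPS22B overlapped at 5 g/L with where it began: its _i_at probe set read 694, 651 and 617 at 0.75 g/L, 1187, 1199.5 and 1409.9 at 1 g/L, with 632, 617 and 630.5 at 5 g/L, a fall of 2.01-fold (log2 -1.01 ± 0.14, adjusted p = 0.000198). RPS15, needed for export of the small subunit from the nucleus, had the largest fall among probe sets with 1 symbol by its fitted change (log2 -1.15 ± 0.33, adjusted p = 0.0199). Its 5 g/L arrays read 1776, 638 and 1750.4, replicate 2 far below the other pair, and without that array the change was -0.66 and did not pass. It did not pass either after quantile normalization, with the session in the fit, without replicate 1 at 1 g/L or on the 6 arrays of these concentrations alone. RPS28B fell 1.93-fold on its _i_at probe set (log2 -0.95 ± 0.26, adjusted p = 0.0158), which did not pass with the session in the fit, without the arrays of incomplete record or without any one of replicate 3 at 1 g/L and replicates 2 and 3 at 5 g/L.

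**Figure D3:**
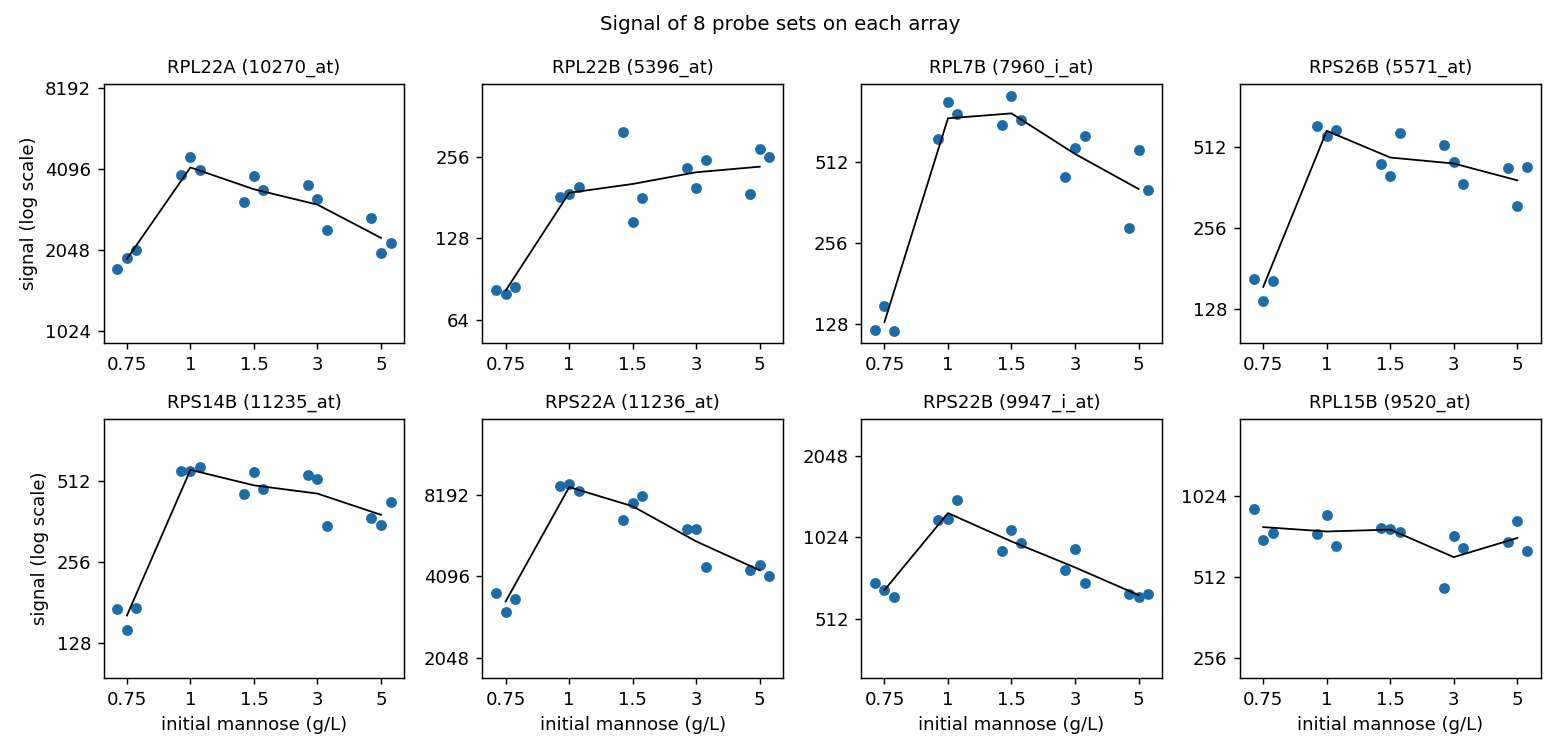
Signals of 8 probe sets on each of the 15 arrays (points, log scale, each panel spanning the same number of doublings) against initial mannose, with lines through the geometric means of 3 arrays. RPL22A and RPS22A peak at 1 g/L, RPL22B stays up to 5 g/L, where it reads 187 to 276, RPL7B, RPS26B and RPS14B fall back in part, and the RPL15B arrays at 0.75 and 1 g/L overlap (log2 -0.054).

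RPL22B was the 1 member that passed in the slope over the whole series. RPL22 is a large subunit protein that yeast can live without, and Rpl22 protein is known to repress splicing of the RPL22B messenger. The B copy read 82.4, 79.4 and 84.2 at 0.75 g/L, 183, 186 and 198 at 1 g/L, then 317, 148 and 182 at 1.5 g/L, 233, 197 and 249 at 3 g/L, with 187, 276 and 256 at 5 g/L. It rose 2.31-fold at 1 against 0.75 g/L (log2 1.21 ± 0.24, adjusted p = 0.00115), and at 5 against 1 g/L its change was 0.32 (adjusted p = 0.358). Its slope over the series was 0.42 ± 0.11 per doubling of mannose (adjusted p = 0.0157). The slope did not pass without the 0.75 g/L arrays (0.14), without the 5 arrays of incomplete record (0.097), with the fluidics run in the fit (0.47) or on mannose that was not log transformed. The A copy read 1736, 1912 and 2056 at 0.75 g/L, 3885, 4516 and 4068 at 1 g/L, then 3090.3, 3857 and 3421 at 1.5 g/L, 3579.9, 3161 and 2429 at 3 g/L, with 2691, 2001 and 2175 at 5 g/L. It rose 2.19-fold (log2 1.13 ± 0.17, adjusted p = 0.00016) and fell 1.83-fold (log2 -0.87 ± 0.17, adjusted p = 0.00245), so all 3 of its arrays at 5 g/L were below all 3 at 1 g/L, where those of RPL22B overlapped.

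The change of A minus that of B, taken within each array, puts this beside the other pairs without setting one probe set's level against another's. For 5 against 1 g/L it was -1.19 (95% interval -1.81 to -0.58) for RPL22, the widest difference of the 31 pairs in which each copy had a probe set of its own. This interval, like the others for pairs, is not adjusted over pairs and carries no p. It stayed below 0 under all 25 alternatives run for it, between -1.48 and -0.66, though many of these leave the fitted difference as it is. For 1 against 0.75 g/L the interval held 0, with a difference of -0.077 (95% interval -0.69 to 0.54). The only other pair whose interval for 5 against 1 g/L missed 0 was RPL13, at -0.44 (95% interval -0.83 to -0.040), and this interval held 0 without replicate 1 or replicate 3 at 1 g/L, among other settings. After quantile normalization 7 pairs had intervals away from 0 in this comparison, 5 above and 2 below.

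At the step from 0.75 to 1 g/L paralogs were less even. In 7 pairs the A copy rose more, in 8 the B copy rose more, and in 16 the interval held 0. The B copy rose more for RPS26, at -1.35 (95% interval -1.69 to -1.01), and for RPS14, at -1.13 (95% interval -1.49 to -0.78). RPS7 followed at -1.0 (95% interval -1.49 to -0.51), where the A copies rose by 0.51 and the B copies by 1.51 as the mean of 2 probe sets each. RPL7, with 2 probe sets for each copy, was at -0.79 (95% interval -1.14 to -0.44). The A copy rose more for RPL15, at 0.81 (95% interval 0.31 to 1.30), and for RPL13, at 0.76 (95% interval 0.36 to 1.16). RPS1 was at 0.65 (95% interval 0.27 to 1.03), RPS27 at 0.52 (95% interval 0.076 to 0.96) and RPS22 at 0.51 (95% interval 0.11 to 0.91), and the last turned to -0.063 with the session in the fit. With the session in the fit 8 pairs in place of 15 had intervals away from 0. RPL6, RPL21, RPL31 and RPL33 on the B side and RPS9 and RPS21 on the A side had differences of at most 0.49 in size. Among the 15 pairs in which both copies had an unmarked probe set, 4 leaned to A, 4 to B and 7 held 0. Marked probe sets (names ending in _i_at, _f_at, _s_at or _g_at) may also pick up a related gene.

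**Figure D4:**
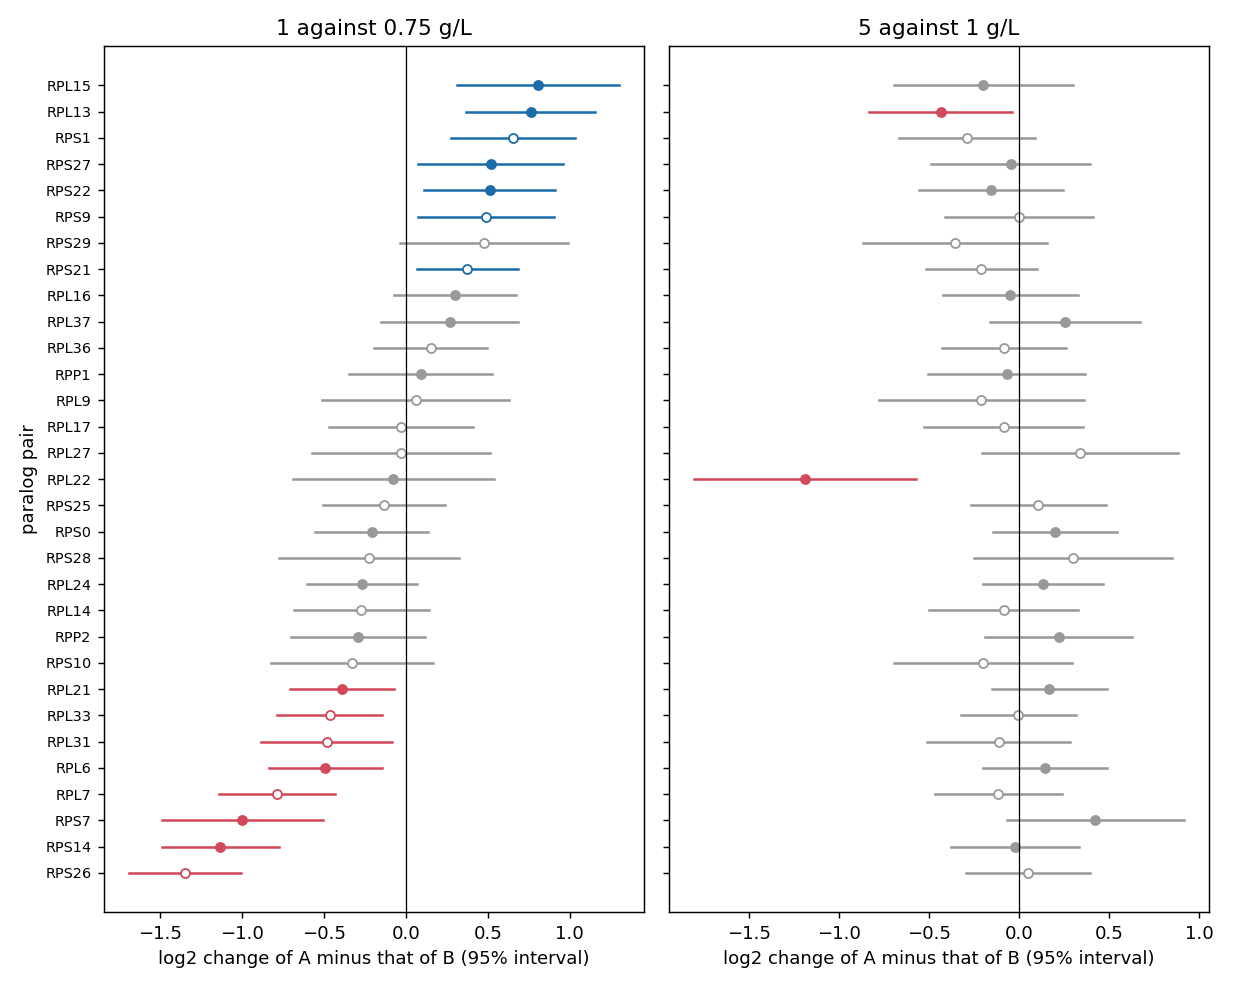
Log2 change of the A copy minus that of the B copy for 31 paralog pairs, for 1 against 0.75 g/L (left) and 5 against 1 g/L (right), as points with 95% intervals that are not adjusted over pairs. Filled points are pairs in which both copies had an unmarked probe set, and colour marks intervals that miss 0. On the left 7 pairs lie above 0 and 8 below, from -1.35 for RPS26 to 0.81 for RPL15, and on the right RPL22 (-1.19) and RPL13 (-0.44) lie below 0.

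At 1 against 0.75 g/L some members did not pass, or passed only narrowly. RPL15B read 704 to 916 at 0.75 g/L and 669 to 872 at 1 g/L (log2 -0.054 ± 0.19, adjusted p = 0.841), with overlapping arrays, while RPL15A, 1.68-fold up (log2 0.75 ± 0.18, adjusted p = 0.00454), did not overlap. RPL10, one of the last proteins to join the large subunit, went from 3058, 3125 and 3478 to 3650.3, 4341 and 4078 without passing (log2 0.32 ± 0.27, adjusted p = 0.373), though its arrays at 1 g/L were all higher. RPL5, which carries the smallest ribosomal RNA into the large subunit, overlapped between 2698, 2317 and 2091 and 2418, 3574 and 2929.7 (log2 0.32 ± 0.21, adjusted p = 0.264). RPS31, made as a fusion with ubiquitin, did not pass either (log2 0.29 ± 0.30, adjusted p = 0.47). RPL3, at the centre where peptide bonds form, passed narrowly (log2 0.47 ± 0.17, adjusted p = 0.0463) with a 1.39-fold rise. Only 3 of 162 members had a fitted change below 0, and the lowest, of an _i_at probe set shared by RPL40A and RPL40B, came from 1 array, replicate 2 at 1 g/L, at 33.9 beside 741 and 561. The other probe sets of RPL40 rose, a second _i_at probe set with log2 0.84 ± 0.14, adjusted p = 0.000267 and an _s_at probe set with log2 0.69 ± 0.24, adjusted p = 0.037.

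Rises and later falls were called among probe sets with 1 symbol and among shared ones. Of the 103 with 1 symbol that were tested, 85 rose at 1 against 0.75 g/L with a median of 0.87, and 41 of 59 shared ones rose with a median of 0.69. At 5 against 1 g/L 61 of 103 and 22 of 59 fell. Of the 55 unmarked probe sets 46 rose (median 0.83) and 33 later fell (median -0.58). The Spearman correlation of mean signal with the change was -0.0784 at 1 against 0.75 g/L and -0.223 at 5 against 1 g/L across 162 members, and -0.0334 and -0.352 across the 55 unmarked ones, which share arrays and are not independent. The 2 members left out by the filter were one of RPL7A, at most 9.2 on any array, and one of RPS10B, at most 6.9 except for 214.9 on replicate 2 at 5 g/L. The background level was set at 13.5, which 95% of the signals of 13 controls (mouse genes and antisense probe sets) did not exceed, and in each tested member at least 1 array at 0.75 g/L was above it.

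Of 15 tested probe sets for 13 known regulators of these genes 5 rose and 2 were called lower at 1 against 0.75 g/L, with a median of 0.18. Over all tested probe sets 22.1% rose and 15.3% fell, so with so few probe sets the counts stood near the background. One of the 2 lower calls, that of CRF1, lies at or below background in both groups and gives no fall. RAP1, the factor bound at most ribosomal protein promoters, had group signals of 28.1 ± 7.12 (SD, n = 3) at 0.75 g/L, 55.3 ± 0.7 at 1 g/L and 34.9 ± 3.96 at 5 g/L. It rose at the first step (log2 1.01 ± 0.20, adjusted p = 0.00137) and fell from 1 to 5 g/L (log2 -0.67 ± 0.20, adjusted p = 0.027). No other regulator listed passed for both a rise and a fall. IFH1, the coactivator, rose (log2 1.50 ± 0.18, adjusted p = 1.77e-05) from a level above background on 1 of 3 arrays at 0.75 g/L and did not pass from 1 to 5 g/L (log2 0.13 ± 0.18, adjusted p = 0.651). SCH9, the TOR-regulated kinase, rose (log2 0.87 ± 0.18, adjusted p = 0.00183), as did ABF1, a factor at some of these promoters (log2 0.70 ± 0.18, adjusted p = 0.00656). From 1 to 5 g/L ABF1 did not pass (log2 -0.44 ± 0.18, adjusted p = 0.083), though its arrays at 5 g/L all lay below those at 1 g/L. FHL1, the forkhead factor that recruits IFH1, and HMO1, a protein bound along the same promoters, did not pass in either comparison. FHL1 lay near background, above it on 1 of 3 arrays at 0.75 g/L, 2 of 3 at 1 g/L and 0 of 3 at 5 g/L, so its change can hardly be read.

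The remaining regulators of the list, repressors among them, went different ways. DOT6 fell at 1 against 0.75 g/L (log2 -1.0 ± 0.25, adjusted p = 0.00637), while its paralog TOD6, at or below background on all 3 arrays at 0.75 g/L, rose to 15.7, 21.6 and 8.9 at 1 g/L, at least 1.07-fold (adjusted p = 0.000537). TOD6 rose again to 59.8, 41.3 and 49 at 5 g/L (log2 1.78 ± 0.39, adjusted p = 0.00465). CRF1, the corepressor that competes with IFH1, was at or below background on all arrays at 0.75 and 1 g/L, and at 5 g/L it was above it on 2 of 3, at least 1.08-fold higher than at 1 g/L (adjusted p = 0.000822). SFP1 rose from 1 to 5 g/L (log2 0.64 ± 0.15, adjusted p = 0.00731). TOR2, STB3 and the 3 tested TOR1 probe sets passed in neither comparison.

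Chaperones dedicated to single ribosomal proteins rose at the first step. Of 8 tested, 8 rose at 1 against 0.75 g/L, where 22.1% of all probe sets did. At 5 against 0.75 g/L 8 of 8 were called higher, where 22.2% of all were. At 5 against 1 g/L 0 fell, where 10.4% of all fell, so with so few probe sets that count stood near the background. RRB1, the chaperone of Rpl3, read 16.1, 15.1 and 22 at 0.75 g/L, 139, 127 and 123 at 1 g/L, with 125, 101 and 108 at 5 g/L, and rose by 2.89 on the log2 scale (adjusted p = 8.83e-08). SQT1, the chaperone of Rpl10, read 103, 107 and 77.5, then 343, 376 and 388 and at 5 g/L 375, 427 and 406 (log2 1.96 ± 0.18, adjusted p = 1.37e-06 for the first step). Both kept the 0.75 g/L arrays below all those at 1 and 5 g/L. YAR1, the chaperone of Rps3, rose at the first step (log2 1.05 ± 0.15, adjusted p = 6.61e-05) and again from 1 to 5 g/L (log2 0.94 ± 0.15, adjusted p = 0.0004). The other 5 lay at or below background on all arrays at 0.75 g/L. At 5 g/L TSR2 was above it on only 1 of 3 arrays, and ACL4 and SYO1 on 2 of 3. LTV1, which works with Rps3 on the small subunit, was at least 2.38-fold higher at 1 g/L, BCP1, for Rpl23, at least 2.11-fold, TSR2, for Rps26, at least 1.15-fold and ACL4, for Rpl4, at least 1.1-fold, and SYO1, the importer of Rpl5 and Rpl11, was above background on 1 of 3 arrays at 1 g/L. At 5 against 1 g/L YAR1 alone of the 8 passed, where 23.9% of all tested probe sets did.

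Of 9 tested probe sets for factors that sit on the mature ribosome, 6 rose at 1 against 0.75 g/L (median 0.87), where 22.1% of all tested probe sets rose. At 5 against 1 g/L 6 fell (median -0.68), where 10.4% of all did, and 4 of the 9 passed in both comparisons, those of STM1, of SSB1 with SSB2 and both of ASC1. ASC1, a protein of the small subunit's head that carries no RPS name, rose on both its probe sets (log2 0.94 ± 0.18, adjusted p = 0.00108 for the probe set with the smaller change) and fell on both (log2 -0.68 ± 0.18, adjusted p = 0.0154 for the same one). STM1, which clamps idle ribosomes, read 888, 995 and 1014, then 1536, 1793 and 1974 and at 5 g/L 1068, 1055 and 1145, a rise (log2 0.87 ± 0.17, adjusted p = 0.00118) and a fall (log2 -0.69 ± 0.17, adjusted p = 0.00918). SSZ1 and ZUO1, of the chaperone complex at the exit of the nascent chain, rose without passing at 5 against 1 g/L (0.147 and 0.183 as adjusted p). EGD2 and BTT1, of the nascent chain complex, fell at 5 against 1 g/L without having passed at the first step, and EGD1 passed in neither. BTT1 was above background on only 1 of 3 arrays at 5 g/L.

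**Figure D5:**
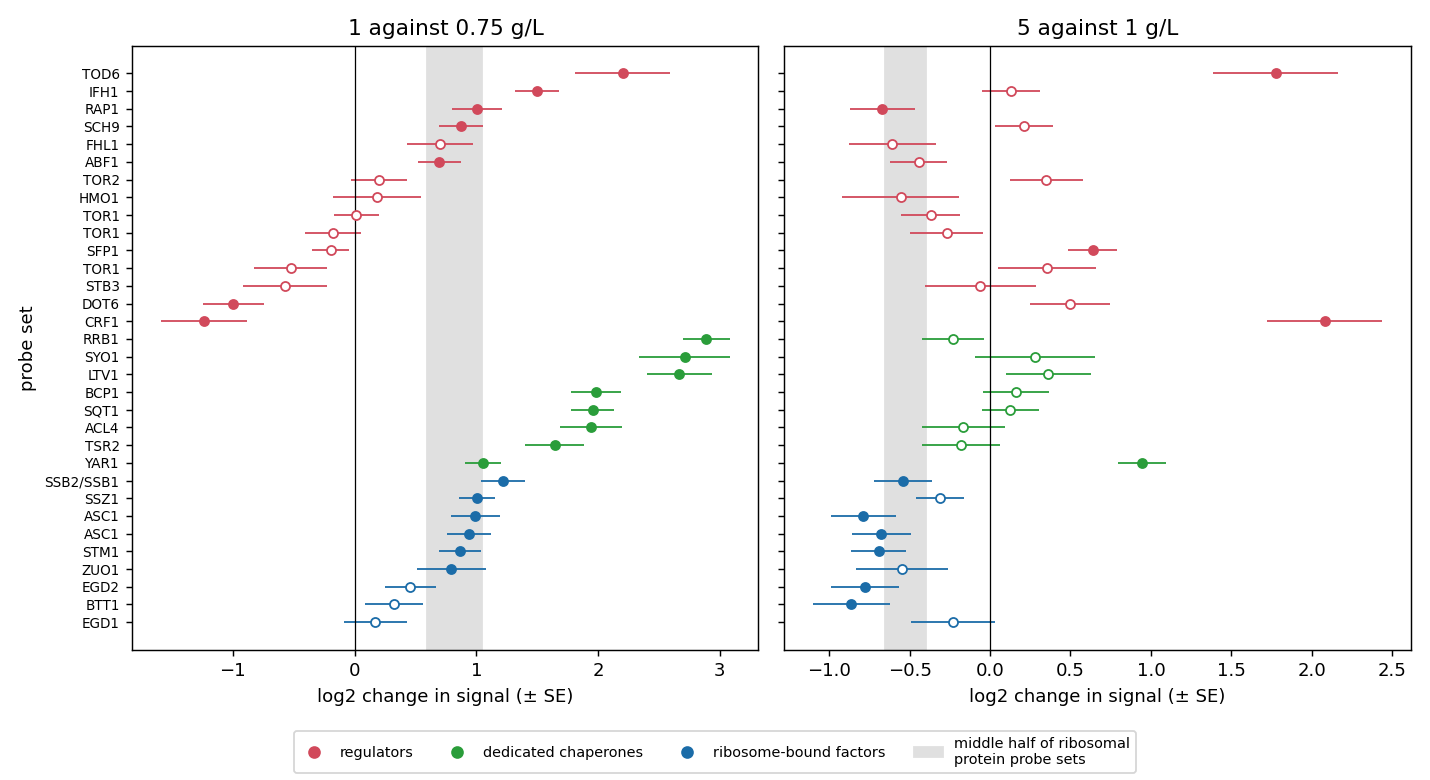
Fitted log2 changes with standard errors for 32 probe sets of regulators, dedicated chaperones and ribosome-bound factors, for 1 against 0.75 g/L (left) and 5 against 1 g/L (right), filled where the adjusted p was under 0.05, with the range from the 25th to the 75th percentile of the 162 ribosomal protein probe sets shaded. The 8 chaperones lie at 1.05 to 2.89 on the left and from -0.23 to 0.94 on the right, while the 9 probe sets of ribosome-bound factors lie at 0.17 to 1.22 on the left and from -0.86 to -0.23 on the right. The fitted changes of genes at background at 0.75 g/L (TOD6, CRF1, LTV1, BCP1, ACL4, SYO1 and TSR2) depend on the floor.

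Mitochondrial ribosomal proteins and UTP genes are given beside the members by their counts, and differences between the sets were not tested. Of 55 probe sets for mitochondrial ribosomal proteins 0 rose and 5 (9.09%) fell at 1 against 0.75 g/L, where 22.1% of all tested probe sets rose and 15.3% fell. At 5 against 1 g/L 29 (52.7%, median -0.60) fell, against 10.4% of all and a share of 51.2% of the cytosolic members. In the slope over the series 38 fell, where the cytosolic members had 0 falls and all tested probe sets 9.34%. Of 26 UTP genes, whose proteins build the small subunit in the nucleolus, 22 rose at 1 against 0.75 g/L, against 22.1% of all tested probe sets. At 5 against 1 g/L 0 of them passed with limma at an adjusted p under 0.05, where 13.5% of all rose and 10.4% fell. In the same fit 4 of the 26 had an unadjusted p under 0.05, against 2506 of the 6956 tested probe sets. The mitochondrial and UTP sets were picked by their symbols after results had been seen.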

How the data were processed

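Total RNA of a PMI40 knockout at 5 initial mannose concentrations was measured on 15 Affymetrix arrays, 3 for each. The deposited values are linear signal intensities, 1 for each probe set, with a 2% trimmed mean near 100 on each array, and the steps from probes to signals are not given in the labels or file headers. The array records were read only for stations, hybridisation times, completion messages and sample codes, and fluidics runs and sessions were inferred from stations and times. Genes were named from the platform annotation, and the 134 member symbols were all found in the RefSeq gene table.

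Signals below the 10th percentile of all values (1.5) were set to it and log2 transformed, the 60 controls were dropped, and so was each probe set whose mean signal fell short of the 25th percentile, leaving 6956 for the tests. Fits used limma 3.58.1 in R 4.3.3 (lmFit and eBayes) over the 15 arrays together, with p-values adjusted by Benjamini and Hochberg's method (Benjamini-Hochberg) across the 6956 in each comparison and a threshold of 0.05. Fitted were a slope on log2 mannose, an F-test for any difference among the concentrations and 6 pairwise comparisons. For paralogs the within-array log2 ratio was fitted, from unmarked probe sets where a copy had one and otherwise the mean of its probe sets, with 95% intervals. Precision is limited by 3 arrays for each concentration.

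Members, lists, comparisons and the rule for named genes were chosen with earlier results of these data known. The rule took, from probe sets with 1 symbol, each that passed in the slope, the 8 smallest adjusted p in the F-test, the up to 6 largest rises and 6 largest falls of each comparison of 2 concentrations, both copies of pairs, stalk genes and the listed regulators, chaperones and ribosome-bound factors. RPL3, RPL5, RPL10, RPS31, the probe sets of RPL40 and that of RPL12 were named after their values were seen. Alternatives were other scalings, floors, filters, a variance model, blocks and arrays left out. Added after the data were seen were the session as a block, values within runs, member subsets, the background level and the mitochondrial and UTP sets. The code was tested on simulated data. Replicate numbers were not taken to pair arrays, since the labels name no pairing. Only 4 of 30 correlations between same-number arrays of different groups exceeded 0.1, which with so few arrays cannot exclude a pairing. Promoter sequences were not used here.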

Additional observations from a re-analysis of the deposited data

How the results depend on the processing

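The rise at 1 against 0.75 g/L and the fall at 5 against 1 g/L kept their direction in all alternatives run. Many of these leave the fitted change as it is. Results below are counts of members called, medians of log2 changes or differences of the subunit medians (large minus small). For 1 against 0.75 g/L quantile normalization gave a median of 0.64 and median scaling one of 0.59, and 36 were called with the session as a block. All tested probe sets shifted by 0.11 as deposited, 0.0011 after quantile normalization and -0.090 under median scaling in this comparison. Relative to that shift the members were higher by 0.69 as deposited and by 0.64 after quantile normalization. Median scaling moves all probe sets of an array alike, so its value of 0.69 equals the deposited one by construction. Over all tested probe sets 1536 rose and 1061 fell as deposited, 1343 and 1259 after quantile normalization and 1074 and 1559 after median scaling. For 5 against 0.75 g/L quantile normalization called 56 and median scaling 11, with a median of -0.013 in the latter, where all tested probe sets shifted by -0.15. For 5 against 1 g/L 42 were called after quantile normalization (median -0.27), 16 with the session block and 48 without arrays of incomplete record. In these fits 930, 265 and 667 of all tested probe sets fell. The F-test called 48 with the session block and 16 without the arrays of incomplete record. Leaving those out takes out the 0.75 g/L group, so that no comparison with 0.75 g/L was possible there. Counts over all tested probe sets were not taken for the F-test under the alternatives, so these have no background beside them. The slope called 2 after quantile normalization, 3 with the session block, 0 on linear mannose, 73 (all lower, median -0.22) without arrays of incomplete record and 80 (all lower, median -0.23) without 0.75 g/L. Of all tested probe sets 774 rose on the slope after quantile normalization, 1359 with the session block and 721 on linear mannose. Among probe sets with 1 symbol and among unmarked ones the slope called 1. Its median was -0.072 after median scaling and 0.11 with the fluidics run as a block. For 3 against 1.5 g/L 3 were called after quantile normalization, 3 after median scaling, 1 without a filter, 6 with a filter at the median, 7 with an intensity trend in the variance and 1 with the run as a block. Without arrays of incomplete record the median of 5 against 3 g/L was -0.020.

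The subunit difference moved to -0.12 after quantile normalization, 0.029 with the session block and -0.16 among unmarked probe sets for 1 against 0.75 g/L. It moved to -0.038 with the session block for 5 against 1 g/L, to -0.047 with 1 symbol for 1.5 against 1 g/L, and to -0.078 with 1 symbol and -0.13 among unmarked probe sets for 5 against 0.75 g/L. For the slope it was -0.0052 after quantile normalization, -0.0081 without arrays of incomplete record and -0.043 among unmarked probe sets. Pairs with an interval away from 0 numbered 8 with the session block for 1 against 0.75 g/L, and 7 after quantile normalization and 1 with the session block for 5 against 1 g/L. The difference of RPS22 for 1 against 0.75 g/L turned to -0.063 with the session block. With 1 array left out in turn the counts called ranged from 106 to 133 for 1 against 0.75 g/L, 47 to 95 for 5 against 1 g/L, 21 to 37 for 5 against 0.75 g/L, 86 to 117 for the F-test, 0 to 1 for 3 against 1.5 g/L and 0 to 1 for 5 against 3 g/L. Pairs ranged from 11 to 16 for 1 against 0.75 g/L and 1 to 3 for 5 against 1 g/L, and the subunit difference from -0.0064 to 0.012 for the slope, -0.048 to 0.012 for 1.5 against 1 g/L and -0.075 to 0.0026 for 5 against 0.75 g/L. The numbers do not pair the arrays. With the replicate block 122 were called for 1 against 0.75 g/L, 75 for 5 against 1 g/L, 26 for 5 against 0.75 g/L, 101 in the F-test and 1 in the slope. Of 710 values of single named genes under alternatives 683 stayed on their side of the threshold, 27 no longer passed and 0 changed direction. The causes of these moves were not tested.

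The 0.75 and the 1 g/L arrays lie in different runs and sessions, and run A holds 1 array of another concentration, so that difference cannot be told apart from run and session beyond the values within run A and those with the session block. Run D holds the 1 g/L arrays alone. The fall from 1 to 5 g/L and the peak at 1 g/L therefore cannot be told apart from that run. No run holds arrays of both 0.75 and 5 g/L either. Levels are relative to the other RNA of an array. Shared and marked probe sets blend paralogs, and 54 genes could not be read alone.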
